A study of Mus musculus with 10 samples.

Results

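Tight junction genes were examined in primary mouse mammary epithelial cells given soluble biglycan. The 9 genes were Cldn1, Cldn3, Cldn4, Cldn7, Ocln, F11r, Tjp1, Tjp3 and Crb3, taken by gene symbol from the 53166 named genes of the count table, and all 9 were present and passed the filter on low counts. Poly-A selected RNA was sequenced from 10 samples. Biglycan protein, a matrix proteoglycan abbreviated BGN, was added at 100 ng/mL to the medium of the 5 BGN samples, while the 5 Control samples went without it. All samples were wild-type primary cells from the mammary gland, grown in DMEM with serum and antibiotics. The labels give neither the duration of stimulation nor the age or number of the mice, and do not say whether replicates were separate cultures, so the p-values reflect the spread among these particular samples, and that spread may be technical.

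Tight junctions seal the space between neighbouring epithelial cells near their apical border. Claudins, tetraspan membrane proteins, form the strands and set which solutes can pass; occludin and junctional adhesion molecules lie beside them, and zonula occludens scaffolds tie them to actin. In the mammary gland these junctions are leaky in pregnancy and close at the onset of lactation, which keeps milk in the lumen. Snail and ZEB repressors, known from epithelial-mesenchymal transition, bind the hexamer CAGGTG (an E-box), and the genes of claudins and occludin are among their known targets.

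The E-boxes near the starts of these genes are shown because the level of the repressor gene Snai1 is reported beside them. Sequences are from RefSeq, build GRCm38.p6, on the strand of the gene, and cover 250 bases before to 50 bases after each annotated start. CAGGTG, or CACCTG as the same hexamer read on the other strand, was found in the windows of 7 of the 9 genes and of 22.6% of 27025 genes in the same table. Crb3 held 4 distinct matches, Cldn4, Cldn7, Ocln and Tjp3 held 2 each, Cldn3 and F11r held 1 each, and Cldn1 and Tjp1 held 0. The palindrome AACCGGTT, the site of grainyhead-like factors that activate epithelial junction genes, was in 0 of the 9 and in 0.174% of all genes. A match describes letters in this window and is not evidence of binding. The bases before the first annotated start of Crb3, with 3 of its 4 matches in capitals, were as follows.
Crb3, chr17:57061951-57062200, plus strand: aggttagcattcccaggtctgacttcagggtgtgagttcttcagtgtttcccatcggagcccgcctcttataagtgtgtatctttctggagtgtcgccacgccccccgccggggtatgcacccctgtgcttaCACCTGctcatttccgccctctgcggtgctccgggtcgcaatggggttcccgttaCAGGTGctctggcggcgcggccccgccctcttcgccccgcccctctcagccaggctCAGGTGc
For the other 6 genes with a match, the hexamer whose first base lies nearest to an annotated start is given in capitals with 12 bases on either side.
Cldn3, chr5:134986233-134986262, plus strand: caaagccacaggCAGGTGcaggggcagtct
Cldn4, chr5:134946906-134946935, minus strand: cctttcttgttgCAGGTGcaggcaggaaag
Cldn7, chr11:69965352-69965381, plus strand: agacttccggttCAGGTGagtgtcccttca
Ocln, chr13:100552694-100552723, minus strand: ccatcggagtttCAGGTGaatgggtcaccg
F11r, chr1:171437427-171437456, plus strand: agttcggggttgCACCTGcgtacggtgagt
Tjp3, chr10:81291267-81291296, minus strand: cacaaaccctccCACCTGcaggccggcctc

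Between 18292624 and 21820560 reads were counted per library. No gene passed the test between the groups at an adjusted p under 0.05 by edgeR, 0% of 14415 genes tested, and 4.81% had an unadjusted p under 0.05. Keratins of both epithelial layers were abundant. Krt14 and Krt5 of basal cells averaged 3528 and 1479 CPM (counts relative to library size, with TMM factors) under BGN, against 3745 and 1548 CPM for Control. Krt8 and Krt19 of luminal cells averaged 877 and 799 CPM under BGN, against 916 and 828 CPM for Control. Sums over markers, here and below, were taken relative to library totals, without TMM factors. The summed CPM of 15 luminal markers was 5091 to 5327 under BGN, against 5220 to 5643 for Control. That of 11 basal markers was 6098 to 6449 under BGN, against 6070 to 7390 for Control. Sums for other cell types were low. The 10 endothelial markers gave 6.61 to 7.50 CPM under BGN and 7.46 to 7.93 CPM for Control, with Cldn5, the claudin of endothelium, at 0 counts in all 10 libraries. The 9 myeloid markers other than Cd14 gave 2.52 to 4.23 CPM under BGN and 2.48 to 4.58 CPM for Control, with Adgre1 and Tyrobp at 0. The 9 fibroblast markers other than Pdgfra gave 6.24 to 10.2 CPM under BGN and 7.17 to 10.3 CPM for Control, with Dpt at 0. Cd14 (380 to 420 CPM in BGN, 380 to 446 in Control) and Pdgfra (37.5 to 43.1 CPM in BGN, 32.1 to 49.1 in Control) were the exceptions. Their part in the results below was not tested. In bulk RNA, fewer cells of a type and less RNA per cell cannot be told apart. Some libraries stood apart over all genes. On the first principal component the outermost library was BGN replicate 5 (20.96, the others -17.0 to 9.58), and on the second Control replicate 5 (-26.9).

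The 9 transcripts differed little between cells with and without biglycan. Of the 9, 0 passed the edgeR test in either direction, against 0% of all tested genes, and 0 had an unadjusted p under 0.05, against 4.81%. At an unadjusted p under 0.1 there were 4 of the 9 (Cldn3, Cldn7, Tjp1 and Crb3), against 10.4% of all tested genes. Leaving out 1 library put up to 3 of the 9 under 0.05 unadjusted (Cldn1, Cldn7 and Tjp1 without BGN replicate 5), with 0 called. By DESeq2, too, none of these genes was called or had an unadjusted p under 0.05. By limma-voom none was called, and Cldn7 alone had an unadjusted p under 0.05 (adjusted p = 0.879). By edgeR, Crb3 had an unadjusted p of 0.0455 with library totals and 0.0497 with upper-quartile factors as the scaling. By the same test, Tjp1 had 0.0415 without the filter on low counts, and Cldn7 had 0.0314 without both replicates 5. In these settings, too, none of the 9 was called. The groups overlapped for every one of the 9 genes, while 0.728% of all tested genes had groups that did not overlap, 0.354% with BGN the lower. The estimates were narrow: the 95% interval of each log2 fold change included 0, and the most distant bound of any of the 9 was a 1.27-fold difference. Adjusted p-values lay between 0.945 and 0.982 (edgeR quasi-likelihood test, Benjamini-Hochberg adjustment over 14415 genes).

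**Figure D1:**
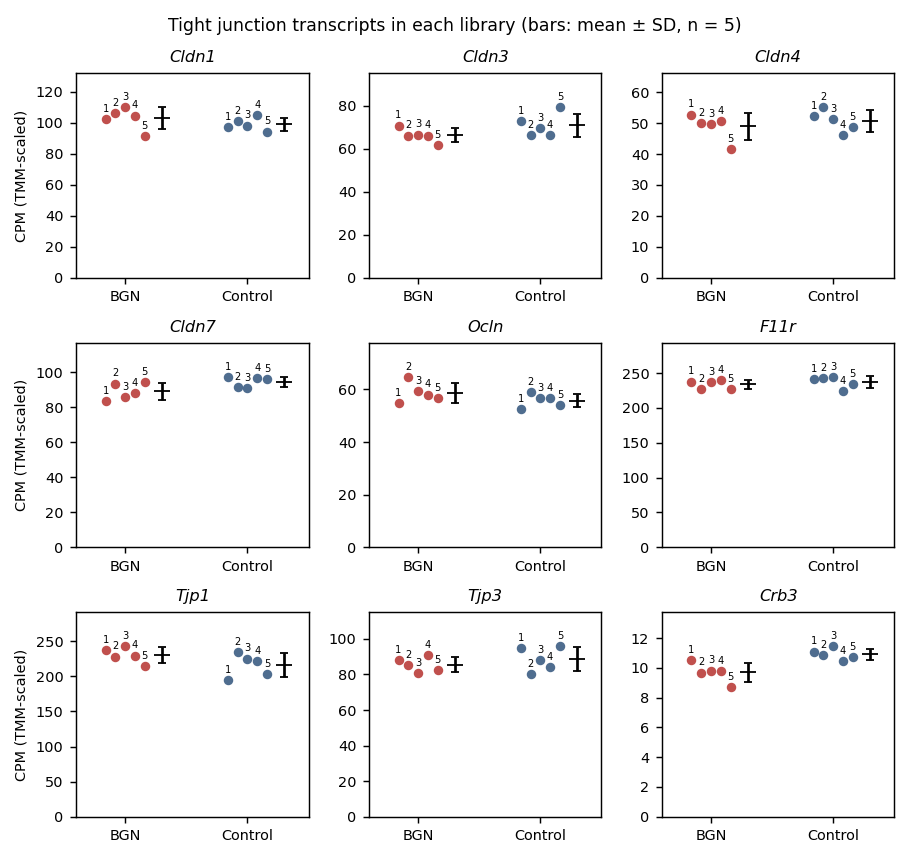
Level of each tight junction transcript by library, in TMM-scaled CPM on axes from 0, with BGN left and Control right in each panel; numbers mark replicates, and bars give the mean ± SD (n = 5). The groups overlap in every panel, and BGN replicate 5 is the lowest of the 10 libraries for Cldn1, Cldn3, Cldn4 and Crb3.

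Among the claudins, Cldn1, a sealing claudin that mice need for the water barrier of the skin, had 102, 106, 110, 105 and 91.6 CPM in BGN replicates 1 to 5, against 97.0, 101, 98.2, 105 and 94.3 CPM for Control replicates 1 to 5. The highest and the lowest library both belonged to BGN. The estimated log2 fold change was 0.054 ± 0.048 (SE; 95% interval -0.046 to 0.15); it was 0.029 without BGN replicate 3 and 0.095 without BGN replicate 5.

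Cldn3 and its chromosomal neighbour Cldn4 encode the claudins that serve as receptors for Clostridium perfringens enterotoxin. Cldn3 had 70.7, 66.1, 66.5, 66.0 and 61.7 CPM under BGN, against 72.9, 66.5, 69.6, 66.4 and 79.2 CPM for Control. Control replicate 5 was highest and BGN replicate 5 lowest, and 3 of the 5 BGN libraries lay within 1 CPM of Control replicates 2 and 4. Its log2 fold change was -0.099 ± 0.053 (SE; interval -0.21 to 0.010), and -0.056 without Control replicate 5 or -0.030 without both replicates 5. Cldn4 had 52.8, 50.1, 49.7, 50.5 and 41.6 CPM under BGN, against 52.2, 55.1, 51.3, 46.1 and 48.8 CPM for Control. Here the estimate was near 0 without 1 library. The log2 fold change of Cldn4 was -0.052 ± 0.062 (SE, interval -0.18 to 0.076) over all libraries. It was 0.0038 without BGN replicate 5 and -0.0098 without both replicates 5. It was -0.081 without BGN replicate 1, -0.019 without Control replicate 2 and -0.085 without Control replicate 4.

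Cldn7, a claudin found also along the lateral membrane and bound by EpCAM, had 83.5, 93.5, 85.7, 87.9 and 94.5 CPM under BGN, against 97.4, 91.7, 91.1, 96.6 and 96.0 CPM for Control. BGN replicates 1, 3 and 4 lay below all 5 Control libraries, and BGN replicates 2 and 5 lay among them. The log2 fold change was -0.086 ± 0.045 (SE; interval -0.18 to 0.0059).

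The other membrane proteins of the junction gave estimates on either side of 0. Ocln, the gene of occludin, which spans the membrane beside the claudins, had 54.8, 64.8, 59.5, 58.1 and 56.6 CPM under BGN, against 52.6, 59.1, 56.6, 56.6 and 54.1 CPM for Control. BGN replicate 2 was highest and Control replicate 1 lowest, and the log2 fold change was 0.073 ± 0.052 (SE; interval -0.034 to 0.18), or 0.037 without BGN replicate 2. F11r, which encodes junctional adhesion molecule A, an immunoglobulin-like protein that helps to place the junction, was the steadiest of the 9. It had 238, 227, 237, 240 and 227 CPM under BGN, against 241, 242, 245, 224 and 234 CPM for Control. The coefficient of variation over the 10 libraries was 3.06%, and the log2 fold change -0.022 ± 0.039 (SE; interval -0.10 to 0.058). The log2 fold change of F11r lay between -0.043 (without Control replicate 4) and -0.011 (without BGN replicate 2 or 5) when single libraries were left out, with -0.014 and -0.012 without Control replicates 2 and 3.

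The scaffold genes Tjp1 and Tjp3 encode ZO-1 and ZO-3, cytoplasmic proteins that bind the tails of claudins. Tjp1 had 237, 228, 243, 229 and 214 CPM under BGN, against 195, 235, 225, 222 and 204 CPM for Control. Control replicates 1 and 5 were the lowest of the 10 libraries, and the log2 fold change was 0.091 ± 0.049 (SE, interval -0.010 to 0.19). The estimate for Tjp1 was 0.056 without Control replicate 1 and 0.12 without Control replicate 2. Tjp3 had 88.1, 85.1, 80.7, 90.9 and 82.5 CPM under BGN, against 94.6, 80.4, 87.9, 84.2 and 95.8 CPM for Control. Control replicates 1 and 5, the lowest for Tjp1, were the highest for Tjp3, whose log2 fold change was -0.051 ± 0.051 (SE; interval -0.16 to 0.054). The estimate for Tjp3 was -0.021 without Control replicate 5, -0.027 without Control replicate 1, -0.032 without BGN replicate 3 and -0.084 without Control replicate 2; without both replicates 5 it was -0.0077. Control replicates 1 and 5 also had the highest shares of counts on ribosomal protein genes (4.38% and 4.31%, the other 8 libraries 3.73% to 3.89%) and the lowest on mitochondrial genes (1.80% and 1.16%, the others 1.91% to 2.27%). The part of these shares in the values was not tested.

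Crb3, the epithelial member of the Crumbs family, which marks the apical membrane and recruits the polarity proteins Pals1 and Patj, was the scarcest of the 9 in CPM and had the estimate farthest from 0. It had 10.5, 9.69, 9.81, 9.77 and 8.71 CPM under BGN, against 11.1, 10.9, 11.4, 10.5 and 10.7 CPM for Control. In these values 4 of the 5 BGN libraries lay below every Control library, and BGN replicate 1 lay above the lowest Control library, replicate 4. The means were 9.70 ± 0.645 CPM under BGN and 10.9 ± 0.372 CPM for Control (SD, n = 5 each). The log2 fold change was -0.17 ± 0.084 (SE; interval -0.35 to 0.0014), with an adjusted p of 0.945 by edgeR, and -0.13 without BGN replicate 5. Crb3 had between 177 and 231 counts per library. At its mean count, counting error gives a coefficient of variation of 7.03%. The coefficient over the 10 libraries, which also holds the difference between the groups, was 7.89%. The part of counting error in the spread of Crb3 was not tested.

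Exons of 3 of the genes overlap exons of a gene on the opposite strand in GENCODE M21 (build GRCm38), and the strand setting of the counting is not given in the sources used here. Crb3 overlaps Dennd1c (3.54 ± 0.492 CPM in BGN, 3.42 ± 0.423 CPM for Control), and Tjp3 overlaps Apba3 (20.2 ± 1.64 under BGN and 21.9 ± 1.30 CPM for Control; SD, n = 5 each). Cldn3 overlaps Wbscr25, which had 26 counts over all libraries. Reads of such pairs may not be separable.

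**Figure D2:**
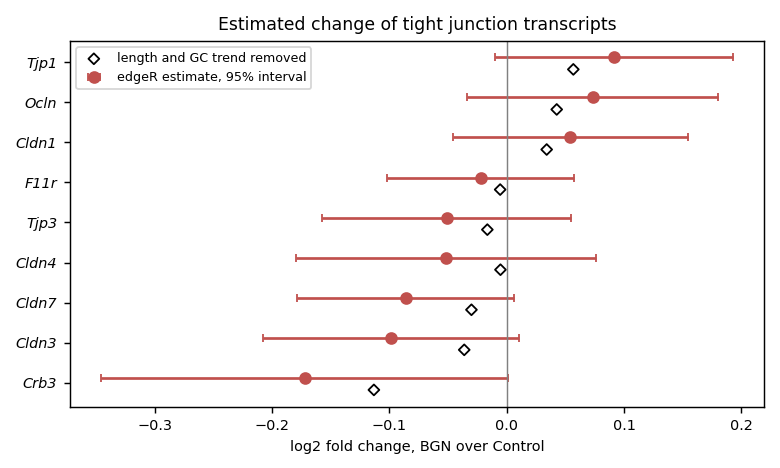
Log2 fold change of each tight junction gene, BGN over Control: filled points are edgeR estimates with 95% intervals, and open diamonds are estimates after the trend of each library on transcript length and GC content was removed. Every interval includes 0, and every diamond lies nearer to 0 than its point.

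Levels per kilobase of transcript allow the genes to be compared with each other. F11r stood first at 93.5 ± 2.86 CPM per kb of its longest coding transcript (SD over 10 libraries, as for the next values). Cldn7 followed at 68.7 ± 3.56 and Cldn3 at 54.5 ± 3.85 CPM per kb, each above the next gene in 10 of 10 libraries. The next 4 genes lay closer together: Tjp1 at 31.6 ± 2.14, Cldn1 at 31.1 ± 1.78, Tjp3 at 28.8 ± 1.80 and Cldn4 at 27.4 ± 2.08 CPM per kb. The mean ± SD of each overlapped that of its neighbour in this order, and the differences were not tested. Tjp1 lay above Cldn1 in 6 of 10 libraries, and Cldn1 above Tjp3 and Tjp3 above Cldn4 in 8 of 10 each. Ocln stood at 14.1 ± 0.847 and Crb3 last at 8.55 ± 0.675 CPM per kb. With the union of annotated exons as the length, Cldn3 (54.5 CPM per kb) passed Cldn7 (47.1), and Cldn1 (20.9) moved below Cldn4 (27.4) and Tjp3 (23.4), so the order within those neighbours depends on the length used.

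The 4 claudins carried most of the family's transcripts. Of 26 claudin genes with a known transcript length, 10 passed the filter and 8 had 0 counts. Cldn1, Cldn3, Cldn4 and Cldn7 together made up 83.2 ± 1.00% of the family's CPM per kb in BGN and 84.0 ± 0.955% in Control (SD, n = 5 each). Cldn7 alone held 31.2 ± 2.04% in BGN and 32.1 ± 0.762% in Control, and Cldn3 24.6 ± 1.09% in BGN and 25.5 ± 1.64% in Control. All shares took the longest coding transcript as the length. With the union of exons, Cldn3 (54.5 CPM per kb) lay above Cldn7 (47.1), and shares by that length were not computed. The next claudin, Cldn12, held 5.54 ± 0.289% in BGN and 5.52 ± 0.551% in Control. Cldn2, which forms cation-selective pores in leaky epithelia, held 2.73 ± 0.341% in BGN and 2.48 ± 0.233% in Control.

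**Figure D3:**
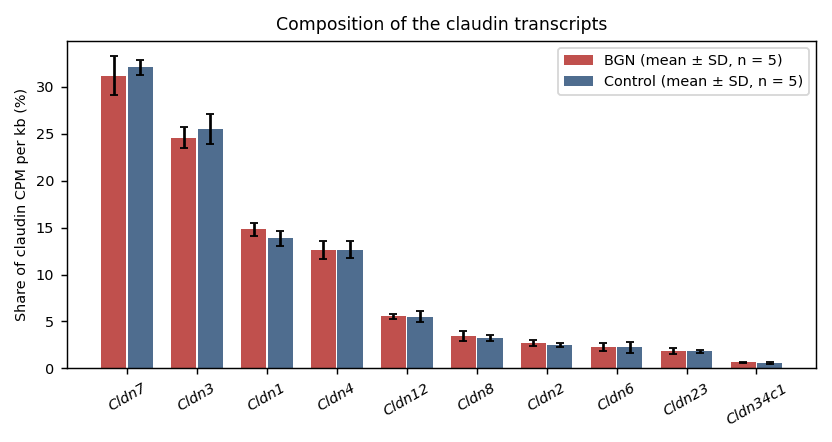
Share of each tested claudin in the summed CPM per kb (longest coding transcript) of the claudin family, in percent. Bars are means and whiskers SD (n = 5), BGN left of Control. Cldn7, Cldn3, Cldn1 and Cldn4 lead in both groups, and Cldn12 follows at 5.54% in BGN and 5.52% in Control.

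The genes did not vary as a single block across libraries. Of 36 pairs, 20 had a positive and 16 a negative Pearson correlation of log2 CPM over the 10 libraries. Cldn7 and Tjp1 were opposed most: r was -0.797 (permutation p = 0.00639, adjusted p = 0.104 over 36 pairs) and Spearman's rho -0.891 (permutation p = 0.00134, adjusted p = 0.0482), two-sided, with r at -0.734 without the 2 libraries of most extreme Cldn7. This was the only pair past 0.05 after adjustment, and only by rank; 0 pairs passed by Pearson's r. Cldn3 and Tjp3 had the highest r, 0.782 (permutation p = 0.00518, adjusted p = 0.104), with rho at 0.527 (permutation p = 0.125, adjusted p = 0.410). The r was 0.438 without the 2 libraries of most extreme Cldn3, so the relation rests partly on these. Cldn4 and F11r had r at 0.743 (permutation p = 0.00863, adjusted p = 0.104) and rho at 0.782 (permutation p = 0.0107, adjusted p = 0.148), and r at 0.746 without the 2 libraries of most extreme Cldn4. All genes of a library share its depth and scaling, and both groups enter these correlations.

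**Figure D4:**
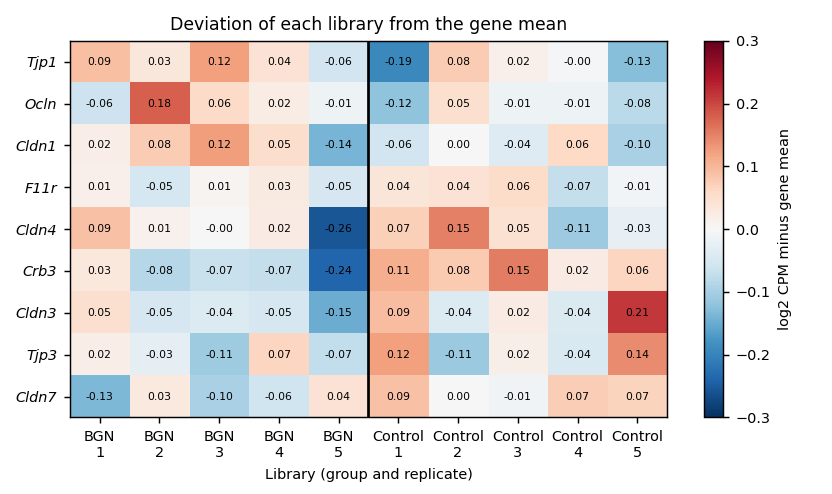
Log2 CPM of each tight junction gene in each library minus the mean of that gene over the 10 libraries (colour and number), BGN libraries left of Control. Cldn4 and Crb3 are lowest in BGN replicate 5, at -0.26 and -0.24, and Control replicate 5 is high for Cldn3 (0.21) and low for Tjp1 (-0.13).

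The direction of the estimates followed transcript length. Estimates were above 0 for Tjp1, Ocln and Cldn1, whose longest coding transcripts have 7049, 4052 and 3247 nt, the 3 longest of the 9. Estimates were below 0 for Tjp3 (3024 nt), F11r (2518 nt), Cldn4 (1816 nt), Cldn7 (1335 nt), Cldn3 (1259 nt) and Crb3 (1206 nt). GC content divided them in the same way: it was 42.0% for Ocln, 42.3% for Cldn1 and 46.8% for Tjp1, and between 50.1% (F11r) and 62.8% (Cldn3) for the other 6. A trend in the same direction ran through the whole table. The median log2 fold change was -0.041 over the 2819 tested genes with the shortest transcripts (up to 1575 nt). It was 0.034 over the 2816 with the longest (4967 nt or more). Between these, the medians were -0.025 (1576 to 2507 nt), -0.011 (2508 to 3495 nt) and 0.0054 (3496 to 4965 nt). Cldn1, with an estimate above 0, fell in the range of 2508 to 3495 nt, as did Tjp3 and F11r, with estimates below 0. Ocln fell in that of 3496 to 4965 nt. The part of length and GC content in the estimates of the 9 genes was not tested. With each library's trend on length and GC content removed, an alternative chosen after seeing the data, Crb3 had a log2 fold change of -0.11, Cldn3 of -0.036, Cldn7 of -0.030, Tjp1 of 0.057, Ocln of 0.043 and Cldn1 of 0.034. Those of Tjp3, F11r and Cldn4 were -0.017, -0.0057 and -0.0054. All 9 lay nearer to 0 than before, and 0 had an unadjusted p under 0.05 by edgeR. The signs of the 9 estimates already ran with length and GC content before the removal. The removal also takes out any difference between the groups that runs with them, so this move is not a test.

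**Figure D5:**
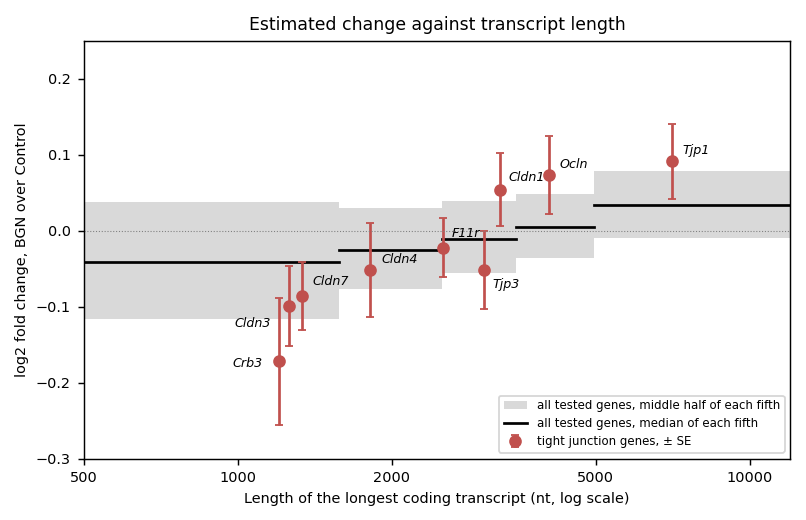
Log2 fold change of each tight junction gene (points, ± SE), BGN over Control, against the length of its longest coding transcript in nt on a log axis; black lines and grey bands are the median and the interquartile range of all tested genes in 5 bins by length. The lines lie at -0.041 in the bin of shortest transcripts and at 0.034 in the bin of longest, and the points of the 9 genes run in the same direction.

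No gene of the wider apical junction was called either. Beside 3 estimates above and 6 below 0 in the 9 genes (median log2 fold change -0.051), the median over all tested genes was -0.0040, with 52% below 0. Of 24 other claudin entries 7 were tested, with 5 estimates above and 2 below 0 (median 0.040). Cldnd1, a claudin-domain relative, averaged 100.0 ± 5.45 CPM under BGN and 97.3 ± 7.39 CPM for Control, Cldn12 44.5 ± 2.94 under BGN and 45.7 ± 3.94 CPM for Control, and Cldn2 17.8 ± 2.09 under BGN and 16.7 ± 1.75 CPM for Control. Cldn34c1 had the smallest p of this list, at 4.71 ± 0.511 CPM under BGN and 4.04 ± 0.825 CPM for Control (SD, n = 5 each, as for all means below).

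Of 14 other membrane proteins of the junction, 9 were tested, with 4 estimates above and 5 below 0 (median -0.022). Epcam, whose product binds and stabilises claudin-7, averaged 1119 ± 24.2 CPM under BGN and 1136 ± 43.0 CPM for Control (log2 fold change -0.022). Cxadr, the coxsackievirus and adenovirus receptor, averaged 699 ± 41.5 under BGN and 661 ± 25.6 CPM for Control (0.081). Marveld3, a relative of occludin, averaged 42.5 ± 2.62 CPM under BGN and 45.2 ± 1.52 CPM for Control (-0.088).

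All 17 plaque and linker genes were tested, with 11 estimates above and 6 below 0 (median 0.017). Cttn, the actin regulator cortactin, averaged 380 ± 14.1 CPM under BGN and 388 ± 9.72 CPM for Control, the angiomotin-like gene Amotl1 331 ± 14.1 under BGN and 327 ± 14.4 CPM for Control, and Cgnl1, paracingulin, 317 under BGN and 309 CPM for Control. Sympk and Tjap1 had the smallest p of this list, with log2 fold changes of -0.084 and 0.076.

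Among polarity genes 16 of 19 in the table were tested, with 9 estimates above and 7 below 0 (median 0.012). The GTPase gene Cdc42 averaged 648 ± 16.7 CPM under BGN and 641 ± 37.1 CPM for Control, Lin7c 218 ± 4.27 under BGN and 209 ± 13.8 CPM for Control, and Dlg1 203 ± 5.95 under BGN and 200 ± 9.44 CPM for Control. Pard3b, a paralogue of the polarity scaffold Par3, averaged 14.3 ± 0.641 CPM under BGN and 12.1 ± 1.57 CPM for Control, and the log2 fold change was 0.24 ± 0.089 (SE; unadjusted p = 0.0121, adjusted p = 0.945 by edgeR). Its groups overlapped, since Control replicate 4 had 13.7 CPM and BGN replicate 1 had 13.4 CPM. Pard6b had a log2 fold change of 0.13.

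All 12 adherens junction genes were tested, with 7 estimates above and 5 below 0 (median 0.014). Ctnnb1 (beta-catenin) averaged 1740 ± 87.0 CPM under BGN and 1722 ± 89.7 CPM for Control, Cdh1 (E-cadherin) 895 ± 10.2 under BGN and 867 ± 26.2 CPM for Control, and Ctnna1 (alpha-catenin) 611 ± 10.4 under BGN and 613 ± 16.9 CPM for Control. Nectin4 had a log2 fold change of -0.072. None of these lists held a called gene by edgeR, DESeq2 or limma-voom, and each adjusted p was at least 0.945 by edgeR.

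Regulators of the junction split 9 above and 9 below 0 among 18 tested of 21 (median log2 fold change -0.0091). Snai1, the repressor gene, was scarce: it had 5.11, 4.54, 4.42, 5.36 and 4.79 CPM under BGN, against 6.12, 7.53, 7.35, 6.88 and 4.08 CPM for Control. All 5 BGN libraries lay below Control replicates 1 to 4, and Control replicate 5 was the lowest of all. The log2 fold change was -0.40 ± 0.14 (SE, unadjusted p = 0.00877, adjusted p = 0.945 by edgeR). When single libraries were left out, that of Snai1 ran from -0.52 to -0.33. The first was without Control replicate 5 (adjusted p = 0.231 by edgeR), the second without Control replicate 2 (adjusted p = 0.811 by edgeR). Its relative Snai2 averaged 44.0 ± 4.58 CPM under BGN and 42.6 ± 2.77 CPM for Control. Grhl2, an activator of claudin and E-cadherin genes, averaged 159 ± 5.27 CPM under BGN and 156 ± 5.93 CPM for Control. Ehf, an epithelial ETS factor, averaged 725 ± 26.1 under BGN and 725 ± 17.9 CPM for Control, Esrp1, an epithelial splicing regulator, 338 ± 6.77 under BGN and 328 ± 8.65 CPM for Control, and Spint2, a protease inhibitor, 392 ± 8.99 under BGN and 409 ± 16.3 CPM for Control. St14, the matriptase gene, averaged 305 ± 7.69 CPM under BGN and 324 ± 20.2 CPM for Control (log2 fold change -0.086).

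Luminal markers had 6 estimates above and 9 below 0 (median log2 fold change -0.019). Of these 15, 4 had an unadjusted p under 0.05 by edgeR (26.7%, against 4.81% of all tested genes) and 0 passed the test. The 4 were Muc1 with a log2 fold change of 0.14, Krt7 with -0.11, and Kit and Foxa1, named after their values were seen. Among basal markers 0 of 9 tested had an unadjusted p under 0.05; Itga6 averaged 754 ± 53.2 CPM under BGN and 730 ± 39.0 CPM for Control, Trp63 had a log2 fold change of 0.071 and Krt17 of -0.16.

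The genes whose pattern was most like the mean deviation of the 9, among 11956 others with at least 50 counts on average, were Ak4, Pfkl, Smtnl2, Slc16a3 and Pdk1, with Pearson's r of 0.957, 0.952, 0.951, 0.951 and 0.948 over 10 libraries. BGN replicate 5 stood apart in this pattern: the mean deviation of the 9 was -0.104 there, against 0.00057 to 0.013 in the other 4 BGN libraries and -0.014 to 0.027 in Control. In that library Ak4 had 36.8 CPM, against 75.7 to 93.3 CPM in the other BGN libraries and 61.1 to 96.1 CPM for Control. Without BGN replicate 5 alone, r was 0.777 for Ak4, 0.706 for Pfkl, 0.840 for Smtnl2, 0.744 for Slc16a3 and 0.694 for Pdk1. Without BGN replicate 5 and Control replicate 4, the 2 libraries farthest from the median, r was 0.420 for Ak4, 0.208 for Pfkl, 0.614 for Smtnl2, 0.343 for Slc16a3 and 0.190 for Pdk1. Spearman's rho over the 10 libraries lay between 0.564 (Pdk1) and 0.733 (Smtnl2). No p is given, since these genes were the closest of many.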

How the data were processed

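The deposited values are the authors' raw read counts, whole numbers by gene symbol. FastQC, cutadapt 1.9.1, HISAT2 2.2.1, HTSeq and DESeq2 appear in the submitters' processing notes, with GRCm39 as the build; neither annotation release nor strandedness is given in the sources used here. Groups and replicate numbers came from sample titles. No 2 libraries agreed within sampling noise (chi-square per degree of freedom at least 2.43), so none was counted as a repeat.

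Low genes were removed with filterByExpr and libraries scaled by TMM. Treatment was the single term of a robust quasi-likelihood fit in edgeR 4.0.16 (R 4.3.3). The p-values were adjusted after Benjamini and Hochberg over 14415 genes, and an adjusted p under 0.05 was called. Fold changes are BGN over Control; SE and 95% intervals come from the fold change and its F statistic. The edgeR fits with and without removal of the length and GC trend were also run on simulated counts. The outcome of that run is not given here, and the other steps were not simulated. Correlations used log2 CPM (prior count 2) and 100000 permutations. Transcript length and GC content came from GENCODE M21 (build GRCm38) by symbol, for 97.7% of tested genes. Promoter windows came from RefSeq, where all 9 genes matched. Alternatives were other scalings, other filters, DESeq2 1.42.0, limma-voom (limma 3.58.1), a replicate block, leaving out libraries and, added later, removal of the length and GC trend.

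Genes outside the 9 were named by rule: in each list the 3 of highest mean CPM and the 2 of smallest p, the 5 genes most alike in pattern, and Snai1, Snai2, Grhl2 and Epcam; 1 gene that this rule names is not reported here. Cd14, Pdgfra, Kit and Foxa1, and genes with overlapping exons, were named outside that rule after their values were seen. The members, lists and rules were chosen with earlier results of these data known.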

Additional observations from a re-analysis of the deposited data

Results flagged for a closer look

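In groups of 5 libraries, a value was picked out where its gap to the nearest other library exceeded 71% of the range of the group; chance gives about 5% of groups. Of 106 groups examined, 10 held such a value. All groups come from the same 10 libraries. Pdk1, Pfkl and Smtnl2 were picked for likeness to a pattern in which BGN replicate 5 stands apart. The count of 10 can therefore not be set against the 5%. Cldn4 was at 41.6 CPM in BGN replicate 5, against 49.7 to 52.8 CPM in the other 4 BGN libraries. The mean deviation of the 9 tight junction genes was -0.104 in BGN replicate 5, against 0.00057 to 0.013 in the other BGN libraries, and -0.0142 in Control replicate 4, against 0.016 to 0.027 in the other Control libraries. BGN replicate 5 was also low for Pdk1 (112 CPM, the other 4 at 205 to 228), Pfkl (180 CPM, the others at 297 to 330), Smtnl2 (4.42 CPM, the others at 12.3 to 14.6) and Krt17 (114 CPM, the others at 146 to 156). Control replicate 5 was high for Krt19 (984 CPM, the other 4 at 760 to 808) and St14 (359 CPM, the others at 307 to 320). BGN replicate 3 was high for Nectin4 (142 CPM, the others at 129 to 132). Krt19, St14, Krt17, Nectin4 and the 3 genes alike in pattern are not tight junction genes.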

How the results depend on the processing

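Under all 20 alternatives 0 of the 9 tight junction genes and 0 genes of the wider junction lists were called. Among all genes, 3 were called without the filter on low counts and 0 under the other 19 alternatives; among the 3, named after their values were seen, were Kctd12 (log2 fold change 0.24) and Oas3 (-0.88). Of 180 alternative log2 fold changes of the 9 genes, 1 changed sign: Cldn4 ran from -0.085 to 0.0038 without single libraries. With the replicate block the smallest adjusted p of the 9 was 0.855 and Crb3 stood at -0.17; the block called 0 genes. Same-numbered samples had correlations of -0.031 to 0.27, and 1 of 5 BGN libraries correlated best with its own number. With 5 samples per group, these values cannot decide whether same-numbered samples share a culture, which the labels do not give.

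Some other genes named changed sign. With BGN replicate 5 and Control replicate 5 left out together, Cldnd1 was at -0.025, Epcam at 0.011, Cdc42 at -0.020, Ctnna1 at 0.019, Krt19 at 0.061, Ak4 at 0.034, Pfkl at 0.029, Smtnl2 at 0.0087 and Pdk1 at 0.053. With the length and GC trend removed, Epcam was at 0.011, Amotl1 at -0.015, Dlg1 at -0.018, Ehf at -0.032 and Krt19 at 0.0047. With limma-voom, Cdc42 was at -0.0029, Ctnna1 at 0.0055 and Krt19 at 0.0090; Ehf was at -0.0038 with library totals and -0.00086 with upper-quartile factors. Without single libraries the log2 fold change ran from -0.23 to 0.042 for Ak4, -0.0070 to 0.036 for Amotl1, -0.019 to 0.030 for Cdc42, -0.0020 to 0.070 for Cldnd1, -0.013 to 0.013 for Ctnna1, -0.0090 to 0.042 for Ctnnb1, -0.00011 to 0.039 for Dlg1, -0.013 to 0.024 for Ehf, -0.086 to 0.020 for Krt19, -0.14 to 0.072 for Pdk1, -0.31 to 0.022 for Slc16a3 and -0.29 to 0.056 for Smtnl2. The cause was not tested. Among the 9 tight junction genes, Crb3 had the fewest counts.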
